A study of Brassica napus and Camelina sativa and Thlaspi arvense with 24 samples.

Results

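The genes described here lie in 2 windows of gene IDs of *B. napus* chromosomes C05 and C06. Each window holds all or part of a stretch where N99 had almost no transcripts of most genes that DH12075 transcribed. Genes transcribed in both lines lie beside it. The windows ran from BnaC05g026700 to BnaC05g027700 and from BnaC06g056210 to BnaC06g057210. A gene was kept as a member when its mean was at least 1 TPM (a transcript's length-corrected share of its library, scaled to a fixed total) in either line. This gave 67 members among 179 listed IDs, namely 28 of 99 on C05 and 39 of 80 on C06, out of 123329 *B. napus* genes listed and 45801 at 1 TPM or more in either line. The windows were placed where such stretches had been seen in these data, and the members were selected on the mean level of each line. The levels of the members in N99 against DH12075 are therefore given as a description, without a test.

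The study sequenced RNA of cotyledons and first true leaves of *B. napus*, *C. sativa* and pennycress seedlings grown in a chamber for up to 2 weeks after germination. Used here were 12 libraries in 4 groups of 3 biological replicates, namely DH12075 cotyledons, DH12075 leaves, N99 cotyledons and N99 leaves. The labels give no treatment, and neither the labels nor the methods give the pedigree of N99. Each tissue is a mixture of cell types, so fewer cells of a type and less RNA per cell cannot be told apart.

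*B. napus* is an allotetraploid with an A subgenome from *B. rapa* and a C subgenome from *B. oleracea*, so that most genes have a homoeolog on the other subgenome and often further copies that descend from an older triplication. Lines of the species are known to differ in stretches of chromosome that are missing, duplicated or exchanged between homoeologs. Transcript levels alone do not tell a gene that is missing from one that is present and not transcribed. Both lines were quantified against the transcripts of DH12075, so an N99 transcript that differs in sequence can also be listed too low, and these 3 cases cannot be told apart in the deposited values.

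Within the 4 groups the correlation between replicates over all genes was between 0.953 and 0.984. Replicate 2 of the N99 cotyledons stood apart, with 37.1% of its TPM in its 10 most abundant genes against 7.98 to 11.9% in the other 11 libraries. The tissue labels were not checked against photosynthesis or seed storage genes, because none of the 7 marker genes chosen could be paired with IDs. The genes carry no names in the tables. For C05, 20 IDs could be matched to *A. thaliana* genes by way of the study's own expression table by *A. thaliana* ortholog, 14 of them members, while 0 IDs of the C06 window were matched in the part of that table used, as 1 of at most 2 copies, and they are given by ID.

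A gene was called silent in N99 when its DH12075 mean was at least 1 TPM and its N99 mean was under 5% of it. Of the 67 members 30 were silent, 7 on C05 and 23 on C06. Among the other 37 members, 33 had such a DH12075 mean. Over all genes with such a DH12075 mean, 3.4% met the same rule. The windows were chosen to hold stretches silent in N99, so the larger share among members follows from that choice and is no result. The N99 level of these 30 had a median of 0.045% of the DH12075 level and reached 3.87% at most. For 14 of them every N99 library was listed at 0. In all 30 the highest N99 library lay below the lowest DH12075 library. This follows largely from the rule, which used the means of the same libraries, and is no further result. Of all expressed genes, 14.7% showed such a separation in this direction and 12% in the other. All 30 were also under 5% in cotyledons alone and in leaves alone. In DH12075 they were ordinary genes in abundance, with a median of 3.57 TPM and a highest mean of 35.4 TPM, beside a median of 4.88 TPM over all genes of at least 1 TPM.

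The other 37 members lay before the silent ones in ID order or, on C06, also among them. They did not meet the rule for silence and are called transcribed here. The lowest N99 mean among them, in BnaC06g056730, was 0.254 TPM. For the 33 of them with a DH12075 mean of at least 1 TPM, the N99 level had a median of 98.9% of the DH12075 level, from 6.36% to 470%. Over all 37, the libraries did not overlap between lines for 7 members that were lower in N99 and for 3 that were higher. This is close to the 14.7% and 12% of all expressed genes, so the counts are no result about these members.

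On C05, the silent members formed a single run of 7 from BnaC05g027340 to BnaC05g027550, with no transcribed member between them. A pairing with *A. thaliana* genes was found for 3 of these silent members. BnaC05g027350 pairs with AT1G25380 (NDT2), a mitochondrial carrier that imports NAD+. Its TPM were 5.99, 5.51 and 6.32 in DH12075 cotyledons and 2.70, 3.1 and 2.6 in DH12075 leaves, against 0, 0 and 0.027 in N99 cotyledons and 0 in the 3 N99 leaf libraries. BnaC05g027550 pairs with AT1G25250 (IDD16), a zinc finger transcription factor of the INDETERMINATE DOMAIN family. It had 1.63, 1.38 and 1.32 TPM in DH12075 cotyledons and 0.784, 0.915 and 0.763 TPM in DH12075 leaves, and was listed at 0 in all 6 N99 libraries. BnaC05g027360 pairs with AT1G25375. It was listed at 0 in all N99 libraries as well, with 1.85, 1.55 and 1.86 TPM in DH12075 cotyledons and 1.90, 2.13 and 1.5 TPM in DH12075 leaves.

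The other 4 silent members of C05 have no *A. thaliana* gene paired. BnaC05g027380 was the most abundant of the run, with 10.8, 8.36 and 9.73 TPM in DH12075 cotyledons and 10.7, 10.1 and 10.6 TPM in DH12075 leaves. It was also the only member of this run above 0 in every N99 library, at 0.019 to 0.075 TPM, or 0.43% of the DH12075 level. BnaC05g027540 had a mean of 6.66 ± 1.69 TPM (SD, n = 6) and BnaC05g027420 a mean of 2.65 ± 0.489 TPM (SD, n = 6) in DH12075, and both were listed at 0 in all N99 libraries. BnaC05g027340, the first of the run, had 2.19, 2.02 and 2.0 TPM in DH12075 cotyledons and 1.09, 0.902 and 0.788 TPM in leaves, and only 1 N99 library, a cotyledon one, was above 0 for it (0.014 TPM). Over the run, 34 of the 42 N99 values were 0. Summed over the 7 genes, DH12075 libraries had 23.5 to 32.0 TPM and N99 libraries 0.019 to 0.086 TPM.

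The left edge of the C05 run was sharp in ID order. BnaC05g027320, the last member before it, pairs with AT1G25390, which encodes a protein kinase. It had 1.38, 1.20 and 1.65 TPM in DH12075 cotyledons and 2.55, 2.31 and 1.54 TPM in leaves, against 1.32, 0.683 and 1.04 TPM in N99 cotyledons and 2.21, 2.40 and 2.76 TPM in N99 leaves. The lines overlapped for this gene, with an N99 mean at 97.8% of the DH12075 mean. The member before it, BnaC05g027250, had a mean of 0.776 ± 0.257 TPM in DH12075 and 1.38 ± 0.553 TPM in N99 (SD, n = 6 each), again with overlap. The step from levels like those of DH12075 to almost none thus lay between 2 neighbouring members.

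The right edge was not within the window. The C05 stretch continued past it through 12 more silent genes to BnaC05g028180, so that all 19 expressed genes over 84 IDs from BnaC05g027340 on were silent. Among those 12, the DH12075 mean ran from 2.07 TPM (BnaC05g027990) to 25.2 TPM (BnaC05g028180), and the N99 level had a median of 0.13% of it and a highest value of 3.35%, in BnaC05g027850. This last gene pairs with AT1G24610, of the Rubisco methyltransferase family. BnaC05g028120, which pairs with AT1G24450 (NFD2, an RNase III-like protein required for nuclear fusion in reproduction), had a mean of 10.9 ± 2.31 TPM (SD, n = 6) in DH12075 and was listed at 0 in all 6 N99 libraries. The next expressed gene, BnaC05g028190, was transcribed in both lines, with 1.63 ± 1.06 TPM in DH12075 and 6.15 ± 1.81 TPM in N99 (SD, n = 6 each), and BnaC05g028220 after it had an N99 mean of 90.7% of the DH12075 mean. On either side, 41 expressed genes before the stretch and 64 after it passed before the next silent gene. Only 3 runs of the whole table, this one included, had at least 19 silent genes, and the longest had 49, from BnaC09g071430.

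**Figure D1:**
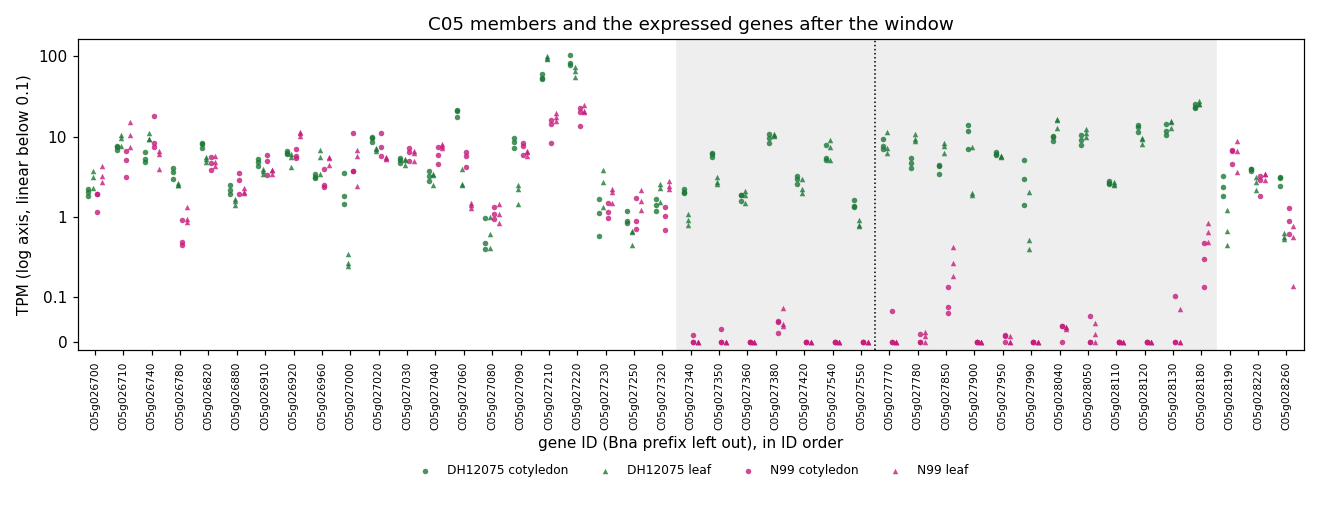
TPM of each C05 member, and of the expressed genes after the window up to BnaC05g028260 (right of the dotted line), in each of the 12 libraries, on a log axis that is linear below 0.1. Grey marks genes silent in N99: from BnaC05g027340 to BnaC05g028180 the N99 points lie between 0 and 0.837 TPM, while the plotted genes on both sides have all points of both lines above 0.1 TPM.

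Of the 21 transcribed C05 members before the run, 17 had overlapping libraries in the lines. Over all expressed genes, 14.7% were lower in N99 without overlap and 12% higher, so this count is no result about these members. The lowest N99 levels against DH12075 were those of BnaC05g027210 and BnaC05g027220, next to each other in the table and the most abundant members of C05. BnaC05g027210 had 54.1, 52.6 and 60.6 TPM in DH12075 cotyledons and 93.0, 95.6 and 100.1 TPM in leaves, against 16.2, 8.37 and 14.2 TPM in N99 cotyledons and 17.8, 19.9 and 15.9 TPM in leaves. BnaC05g027220 had 76.6 ± 16.5 TPM in DH12075 and 20.4 ± 3.83 TPM in N99 (SD, n = 6 each). Their N99 levels, 20.2% and 26.6% of the DH12075 levels, were lower without overlap and far from silent. In the other direction, BnaC05g027000 pairs with AT1G25560 (TEM1, a repressor of flowering of the RAV family) and had a mean of 1.28 ± 1.3 TPM in DH12075 and 5.58 ± 3.12 TPM in N99 (SD, n = 6 each), with overlap between the libraries. Other paired members were BnaC05g026880 of AT1G26120 (ICME-LIKE1, an isoprenylcysteine methylesterase-like protein), BnaC05g027080 of AT1G25470 (CRF12, an AP2/ERF transcription factor) and BnaC05g027230 of AT1G25425 (CLE43, a small signalling peptide). Their N99 levels were 129.5%, 174.5% and 83.8% of those of DH12075, and the libraries of the lines overlapped for all 3.

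On C06, the silent members filled 3 runs of 8, 6 and 8 genes and 1 place between runs. Together with 4 transcribed members among them they made a stretch of 56 IDs from BnaC06g056400 to BnaC06g056950, in which 23 of the 27 members were silent. BnaC06g056950 was also the last C06 gene at 1 TPM or more in either line, and the last ID of C06 in the table was BnaC06g057000. The C06 stretch therefore lay at the end of the chromosome's numbering and not inside it, and it had a neighbour on its left side only, where 90 expressed genes passed before the next silent gene. These were the only 3 runs on C06, against 24 on C05. Outside the 2 windows, 1.96% of the expressed genes of C06 and 8.79% of those of C05 were silent in N99. Functions of these genes are not given, since their IDs were matched to no *A. thaliana* gene.

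The left edge on C06 also lay between 2 neighbouring members. BnaC06g056380 had 6.49, 7.29 and 7.23 TPM in DH12075 cotyledons and 8.32, 8.83 and 8.09 TPM in leaves, against 7.63, 7.13 and 13 TPM in N99 cotyledons and 7.42, 8.52 and 7.94 TPM in leaves, so the lines overlapped. BnaC06g056370 before it had 3.23 ± 0.584 TPM in DH12075 and 1.93 ± 0.345 TPM in N99 (SD, n = 6 each), without overlap. BnaC06g056400, the next member, had 4.54, 4.96 and 3.94 TPM in DH12075 cotyledons and 8.34, 9.03 and 8.38 TPM in leaves, while no N99 library exceeded 0.201 TPM.

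The run from BnaC06g056400 to BnaC06g056520 had the most zeros of C06 in N99, 40 of 48 values. In 6 of its 8 genes all N99 libraries were at 0, namely BnaC06g056450, BnaC06g056480, BnaC06g056490, BnaC06g056500, BnaC06g056510 and BnaC06g056520. The DH12075 means of these 6 went from 1.28 TPM in BnaC06g056450 to 15.1 TPM in BnaC06g056520. The last of them, BnaC06g056520, had 17.6, 16.4 and 17.1 TPM in DH12075 cotyledons and 15.1, 12 and 12.6 TPM in leaves. BnaC06g056420 was the most abundant of the run, with 36.5, 32.8 and 33.7 TPM in DH12075 cotyledons and 8.08, 9.88 and 12.1 TPM in leaves, against 0, 0.034 and 0.106 TPM in N99 cotyledons and 0 in the 3 leaf libraries.

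BnaC06g056530 broke the sequence of silent genes. It had 10.6, 9.25 and 10.4 TPM in DH12075 cotyledons and 10.8, 10.9 and 8.33 TPM in leaves, against 1.51, 0.537 and 1.09 TPM in N99 cotyledons and 1.51, 1.71 and 1.90 TPM in leaves. Its N99 level of 13.7% was low in every library and still at least 0.537 TPM, next to a gene with none.

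The run of 6 from BnaC06g056570 to BnaC06g056680 followed. BnaC06g056590 dominated it with 20.9, 20.1 and 20.1 TPM in DH12075 cotyledons and 21.7, 27.1 and 26.2 TPM in leaves, and its N99 libraries were at 0 in 3 cases and at most 0.032 TPM. BnaC06g056580 and BnaC06g056610 were listed at 0 in all N99 libraries, with DH12075 means of 1.89 and 1.42 TPM. BnaC06g056570, BnaC06g056600 and BnaC06g056680 had N99 levels of 0.69%, 0.12% and 1.99% of their DH12075 means, which were 5.29, 2.77 and 1.83 TPM.

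Between this run and the last one lay 1 silent member and 3 others. BnaC06g056700 was low in both lines, with 0.762 ± 0.284 TPM in DH12075 and 1.08 ± 0.546 TPM in N99 (SD, n = 6 each) and overlapping libraries. BnaC06g056730 stood just outside the limit for silence at 6.36%, with 3.99 ± 0.538 TPM in DH12075 and 0.254 ± 0.085 TPM in N99 (SD, n = 6 each). BnaC06g056750, silent by itself, had 0.969, 1.27 and 1.06 TPM in DH12075 cotyledons and 4.56, 4.24 and 1.92 TPM in leaves, and at most 0.129 TPM in N99. BnaC06g056760 had 7.29, 9.64 and 20.3 TPM in DH12075 cotyledons and 13.1, 10.1 and 16.0 TPM in leaves, against 1.79, 1.52 and 2.78 TPM in N99 cotyledons and 0.389, 0.383 and 0.142 TPM in N99 leaves. Its N99 level was thus 16.4% of that of DH12075 in cotyledons and 2.33% in leaves, the only member of C06 on different sides of the limit in the tissues.

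The last run, from BnaC06g056770 to BnaC06g056950, kept a low residual signal in N99 for part of its genes. BnaC06g056790, its most abundant gene, had 28.0, 30.6 and 31.0 TPM in DH12075 cotyledons and 45.1, 36.8 and 41.0 TPM in leaves, against 0.9998, 0.559 and 0.780 TPM in N99 cotyledons and 0.997, 0.922 and 0.863 TPM in leaves. BnaC06g056840 and BnaC06g056850 had N99 levels of 2.50% and 1.92%, and all 6 N99 libraries were above 0 for both. BnaC06g056770 had the highest percentage of all silent members, 3.87%, with 2.59 ± 0.523 TPM in DH12075 and 0.1 ± 0.032 TPM in N99 (SD, n = 6 each).

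Other genes of the same run were at or near 0 in N99. BnaC06g056890 and BnaC06g056900 were listed at 0 in all 6 libraries. BnaC06g056950, at the very end, had 30.4, 29.1 and 26.6 TPM in DH12075 cotyledons and 35.3, 39.5 and 36.5 TPM in leaves, and its N99 libraries were at 0 in 4 cases and at most 0.066 TPM. BnaC06g056940 before it reached 0.115 TPM in N99 against a DH12075 mean of 4.66 TPM. The N99 means were larger in the genes abundant in DH12075, 0.853, 0.430 and 0.405 TPM in BnaC06g056790, BnaC06g056840 and BnaC06g056850, except in BnaC06g056950, whose N99 mean was 0.014 TPM. Summed over the 8 genes, DH12075 libraries had 111.9 to 129.7 TPM and N99 libraries 1.26 to 2.50 TPM.

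**Figure D2:**
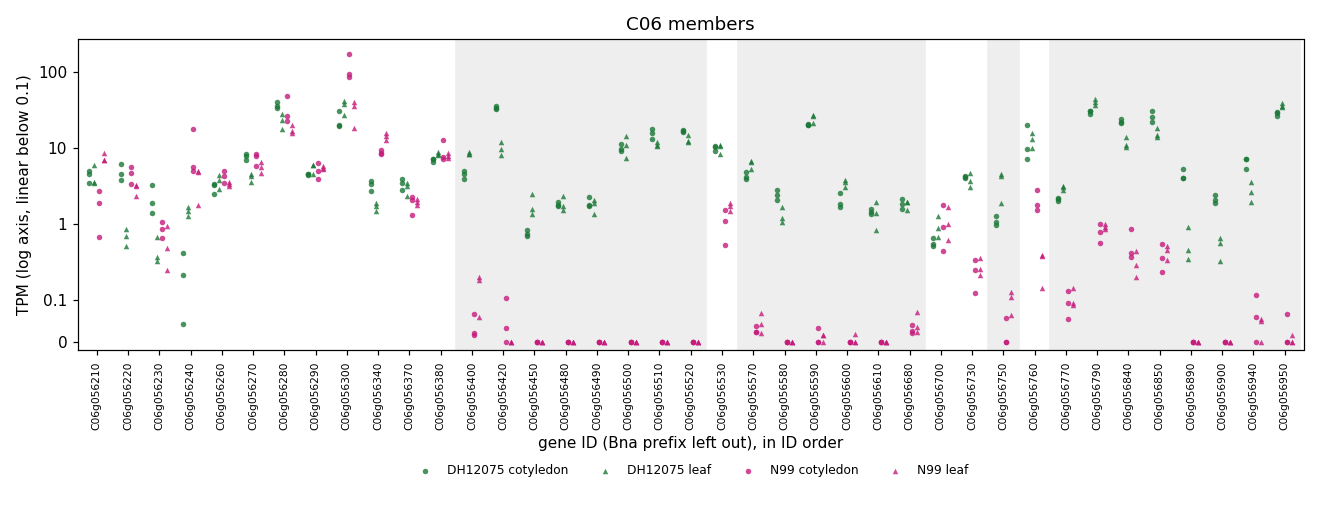
TPM of each C06 member in each of the 12 libraries, on a log axis that is linear below 0.1, with silent members in grey. The N99 points drop to or near 0 from BnaC06g056400 on, return to 0.537 TPM or more in BnaC06g056530, and lie between 0.201 and 0.9998 TPM in BnaC06g056790, BnaC06g056840 and BnaC06g056850. In the other members of the stretch that are not grey they reach 1.78 TPM (BnaC06g056700), 0.353 TPM (BnaC06g056730) and 2.78 TPM (BnaC06g056760).

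IDs under the 1 TPM filter were looked at for the same pattern. Between the first and the last silent member of C05, 9 IDs were at 0 in all 12 libraries and 3 had a DH12075 mean of at least 0.1 TPM. Those 3, BnaC05g027370, BnaC05g027400 and BnaC05g027430, were listed at 0 in every N99 library. Of the 14 such C05 IDs above 0 elsewhere in the window, 11 had a DH12075 mean of at least 0.1 TPM and none of these 11 was at 0 in all N99 libraries. Between the ends of the C06 stretch, 13 such IDs had a DH12075 mean of at least 0.1 TPM, 9 of them with all N99 libraries at 0. The summed means of these 13 were 5.11 TPM in DH12075 and 0.307 TPM in N99. Elsewhere in the C06 window 9 IDs had a DH12075 mean of at least 0.1 TPM, with summed means of 4.44 TPM in DH12075 and 1.67 TPM in N99, and 2 of them were at 0 in all N99 libraries. Those 2 lay next to the stretch: BnaC06g056390, between its left edge and BnaC06g056380, with 0.677 TPM in DH12075, and BnaC06g056980, past its right end, with 0.611 TPM. The other IDs past the right end had N99 levels of 0.86% (BnaC06g056960), 38.3% (BnaC06g056970), 21.9% (BnaC06g056990) and 7.60% (BnaC06g057000) of the DH12075 levels.

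The count on C06 depended on the limit for silence, with 23 silent members at 5%, 25 at 10% and 16 at 1%. On C05 it was 7 at each limit. Members in runs numbered 29 at 5%, 32 at 10% and 23 at 1%. Just inside the limit of 5% were BnaC06g056770 at 3.87%, BnaC06g056750 at 2.57% and BnaC06g056840 at 2.50%. Just outside were BnaC06g056730 at 6.36%, BnaC06g056760 at 9.17% and BnaC06g056530 at 13.7%, all of them within the C06 stretch. The next members in this order were BnaC05g027210 and BnaC05g027220. On C05 the gap was wide, from 0.43% in BnaC05g027380 to 20.2% in BnaC05g027210.

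The rule did not use the tissues, so leaves were compared with cotyledons within DH12075 by limma on log2(TPM + 1), with Benjamini-Hochberg adjustment over the 41199 genes tested. Of the 30 silent members 8 were higher in leaves and 12 lower, and 10 did not pass the test, where 20.8% of all genes tested were higher and 29.5% lower. On C06 the silent members that passed went in both directions, while on C05 none was higher in leaves. The 30 silent members had a median log2 fold change of −0.04, beside −0.08 over all genes tested. Of the 33 other members tested 2 were higher, 11 were lower and 20 did not pass, with a median of −0.11.

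BnaC06g056890 fell most among the silent members, from 5.34, 4.09 and 4.07 TPM in cotyledons to 0.348, 0.457 and 0.908 TPM in leaves (log2 fold change −1.82 ± 0.17 SE, limma adjusted p = 0.000243). Its neighbour BnaC06g056900 fell as well (−1.05 ± 0.14, adjusted p = 0.000862), and so did BnaC06g056420, at the other end of the C06 stretch (−1.70 ± 0.15, adjusted p = 0.000188). For these 3 genes every leaf library lay below every cotyledon library. BnaC06g056750 rose most (1.07 ± 0.25, adjusted p = 0.00997), followed by BnaC06g056400 (0.81 ± 0.11, adjusted p = 0.00105). On C05, the NDT2 copy BnaC05g027350 fell (−0.87 ± 0.11, adjusted p = 0.000699), as did BnaC05g027340 (−0.68 ± 0.12, adjusted p = 0.0027) and the IDD16 copy BnaC05g027550 (−0.42 ± 0.12, adjusted p = 0.0205), while none of the 7 rose. The last gene of the C06 stretch, BnaC06g056950, rose slightly (0.36 ± 0.10, adjusted p = 0.0222).

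Among the transcribed neighbours, BnaC05g027060 fell most. It pairs with AT1G25480 (ALMT4), of the aluminium-activated malate transporter family, and went from 21.1, 21.5 and 17.5 TPM in cotyledons to 2.57, 2.52 and 3.96 TPM in leaves (−2.40 ± 0.17, limma adjusted p = 9.87e-05). BnaC06g056220 fell too (−1.77 ± 0.17, adjusted p = 0.000265), and BnaC05g027210 rose (0.78 ± 0.10, adjusted p = 0.000715). The split of all members tested, 10 higher and 23 lower, became 17 higher and 21 lower after quantile normalization. Without DH12075 leaf replicate 3 it was 16 higher and 20 lower.

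**Figure D3:**
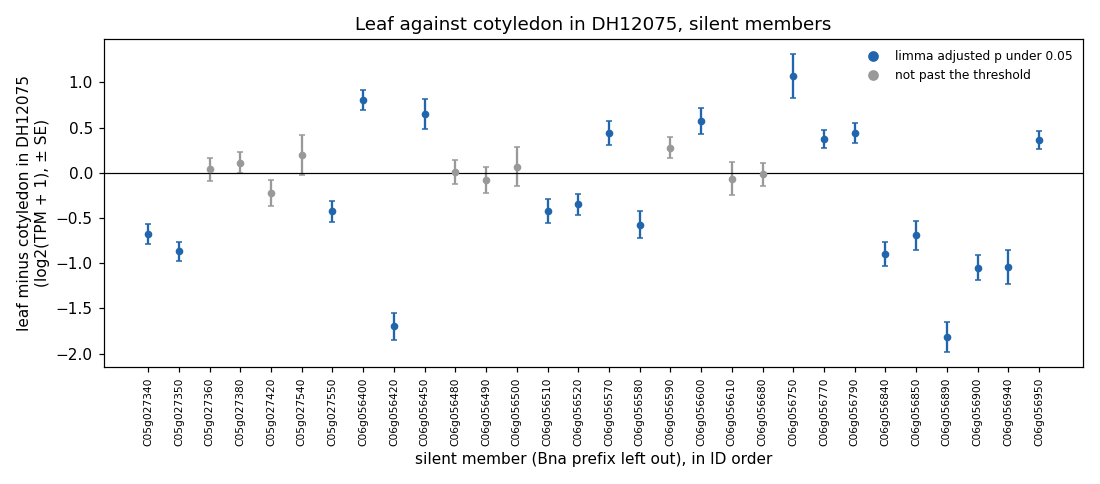
Leaf minus cotyledon difference in DH12075 on the log2(TPM + 1) scale for the 30 silent members in ID order, with standard errors of the limma fit over 6 libraries. Blue points passed the adjusted threshold: 8 lie above 0 and 12 below, and neighbours such as BnaC06g056400 and BnaC06g056420 lie on opposite sides.

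In N99 no silent member reached the filter of the tissue fit, so none was tested. Of the 34 other members tested there, 6 were higher in leaves and 5 lower by limma, where 17.2% of all genes tested were higher and 12.2% lower. BnaC06g056210 rose most, from 2.71, 0.665 and 1.89 TPM in cotyledons to 8.66, 6.998 and 6.93 TPM in leaves (1.70 ± 0.27, adjusted p = 6.04e-05). BnaC05g027320, the last transcribed gene before the C05 stretch, rose as well (0.79 ± 0.22, adjusted p = 0.00834). BnaC06g056300 fell most, from 93.8, 87.4 and 172.9 TPM to 36.4, 41.1 and 18.5 TPM (−1.86 ± 0.35, adjusted p = 0.000439), followed by the ALMT4 copy BnaC05g027060 (−1.42 ± 0.22, adjusted p = 6.76e-05). BnaC06g056760, inside the C06 stretch, fell by 1.20 ± 0.22 (adjusted p = 0.000335) in N99, where in DH12075 its difference was 0.17 ± 0.35 (adjusted p = 0.713). The difference between lines for this gene was −1.37 ± 0.42 and did not pass the test (limma adjusted p = 0.0536).

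BnaC05g026710 rose in N99 leaves (1.003 ± 0.29, adjusted p = 0.0111), but did not pass without cotyledon replicate 2 (0.77, adjusted p = 0.0973) or without leaf replicate 3 (0.76, adjusted p = 0.0734). Without leaf replicate 3 the N99 counts were 2 higher and 3 lower, and without cotyledon replicate 3 they were 5 higher and 2 lower. Without cotyledon replicate 2, the library that stood apart, they were 4 higher and 5 lower. When the 10 most abundant genes of a library were left out and TPM rescaled, 6 were higher and 10 lower.

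Whether the leaf effect differed between lines was tested by the interaction of line and tissue for the 30 members that both lines transcribed. By limma 6 had a higher leaf effect in N99 and 2 a lower one, where 7.72% and 3.1% of all genes tested did. These sets are unlike, since the 30 members had a mean of at least 1 TPM in both lines. The 45801 genes tested needed it in either line only. BnaC06g056300 differed most, being 23.7 ± 6.37 TPM in cotyledons and 36.2 ± 7.94 TPM in leaves of DH12075 and 118.0 ± 47.6 and 32.0 ± 11.9 TPM in N99 (SD, n = 3 each, interaction −2.45 ± 0.47 SE, limma adjusted p = 0.0052). BnaC05g026920 pairs with AT1G25580 (SOG1, a NAC transcription factor of the DNA damage response), and its leaf effect was higher in N99 (0.999 ± 0.22, limma adjusted p = 0.013). The median of this interaction over all genes tested was 0.13 and moved by −0.13 with quantile normalization and by −0.11 with rescaling. The split among members was 6 and 4 with quantile normalization and 6 and 3 with rescaling.

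Most C05 genes paired with *A. thaliana* had further copies elsewhere in the genome, which the rule did not use. For BnaC05g027090 and BnaC05g027850 no further copy was paired. Of the 20 paired C05 IDs, 15 had a copy on A09. The A09 copies came in the reverse ID order in all 14 neighbouring pairs. However, sets of 4 copies were searched only with an A09 ID near the place predicted from genes already paired. For those sets the A09 copy and its rough place were given by the search, so the order is no independent result. The A09 IDs between the copies of the silent genes, BnaA09g038460 to BnaA09g038610, were not silent in N99. Of these 16 IDs 6 were expressed, with N99 levels from 99.1% to 262% of those of DH12075 and a median of 114%. By limma 1 of them was higher in N99 and none lower, where 25.6% of all genes tested were higher and 29.8% lower. The counts are thus no result about these IDs.

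The 3 paired silent genes had 4 other copies, of which 2 reached the filter of the test. BnaA09g038610, the other NDT2 copy, had 4.4, 4.07 and 4.8 TPM in DH12075 cotyledons and 2.73, 1.92 and 2.76 TPM in leaves, against 4.32, 2.42 and 3.55 TPM in N99 cotyledons and 3.05, 3.26 and 3.89 TPM in leaves. The difference between lines was 0.02 ± 0.15 on the log2 scale (limma adjusted p = 0.931), and it took either sign when single libraries were left out. BnaA09g038600, the other copy of AT1G25375, had 1.58 ± 0.167 TPM in DH12075 and 1.74 ± 0.256 TPM in N99 (SD, n = 6 each), a difference of 0.08 ± 0.10 (limma adjusted p = 0.482). Neither passed the test, where 25.6% of all genes tested were higher in N99 and 29.8% lower. The IDD16 copies BnaA09g038460 and BnaC03g079090 were under 1 TPM in both lines, with means of 0.661 and 0.637 TPM in DH12075 and 0.440 and 0.740 TPM in N99.

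Summed over copies, these genes had lower TPM in N99, which was not tested. Each sum includes the silent member, which was chosen for its low N99 level, so a lower sum follows in large part from that choice. The NDT2 copies summed to 10.4 ± 0.771 TPM in DH12075 cotyledons, of which BnaC05g027350 was 57.3%, and to 3.44 ± 0.958 TPM in N99 cotyledons (SD, n = 3 each). In leaves they summed to 5.27 ± 0.218 and 3.40 ± 0.437 TPM. The copies of AT1G25375 summed to 3.19 ± 0.186 TPM in DH12075 cotyledons and 1.73 ± 0.302 TPM in N99 cotyledons (SD, n = 3 each), and BnaC05g027360 was 55.0% of the former. Of the 2 NDT2 copies, both fell from cotyledon to leaf in DH12075, the A09 copy by 0.65 ± 0.14 on the log2 scale (limma adjusted p = 0.0064). In N99 the A09 copy had a difference of 0.01 ± 0.23 (limma adjusted p = 0.984).

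**Figure D4:**
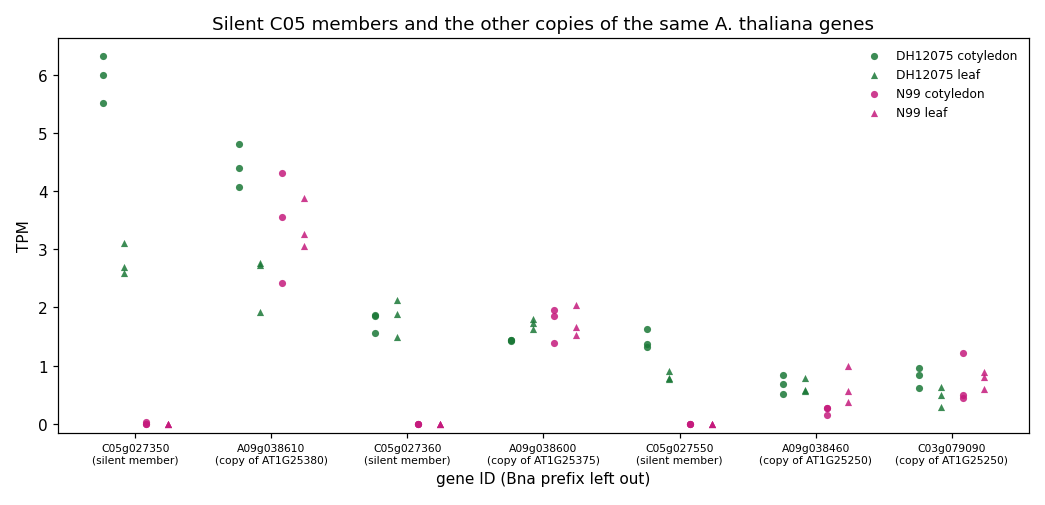
TPM of the 3 silent C05 genes paired with *A. thaliana* genes, and of the other copies of the same genes on A09 and C03, in the 12 libraries. The N99 points of the C05 copies lie at 0 or at most 0.027 TPM, whereas the N99 points of the A09 and C03 copies lie between 0.144 and 4.32 TPM.

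The transcribed C05 members had 24 other copies, of which 18 were tested between the lines. By limma 4 were higher in N99 and 5 lower, which is close to the 25.6% and 29.8% of all genes tested, so the counts are no result about these copies. Among them, 2 further TEM1 copies were higher in N99, BnaA08g027660 (13.6 ± 5.60 against 2.07 ± 1.21 TPM, log2 fold change 2.25 ± 0.29, adjusted p = 2.01e-05) and BnaA09g038960 (10.1 ± 6.77 against 3.40 ± 2.68 TPM, 1.38 ± 0.34, adjusted p = 0.00327). The remaining TEM1 copy, BnaC03g078630, did not pass the limma test (3.27 ± 1.48 against 2.18 ± 1.71 TPM, 0.51 ± 0.32, adjusted p = 0.194). The ALMT4 copy BnaA09g038870 was lower in N99 (2.08 ± 0.9999 against 14.8 ± 11.4 TPM, −2.03 ± 0.22, adjusted p = 3.54e-06), while the copy BnaC03g078750 differed by −0.04 ± 0.14 (adjusted p = 0.844). The SOG1 copy BnaA09g039000 was higher in N99 (4.10 ± 1.48 against 2.12 ± 0.423 TPM, 0.67 ± 0.16, adjusted p = 0.00288). In these sentences SDs are over 6 libraries a line and errors of log2 fold changes are SE. Copies of the genes of the C06 stretch were not looked at, for want of a match.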

How the data were processed

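RNA sequencing of cotyledons and leaves of DH12075 and N99 was used, with 12 libraries in 4 groups from the sample labels. The authors trimmed reads with Trimmomatic (version 0.32), quantified them with Salmon (version 1.10.0) on the DH12075 transcriptome and deposited gene TPM from tximport, with no filter and no log transformation. TPM keep no read numbers, so the depth is unknown and a value of 0 has no interval. The authors' DESeq2 test needs counts, so limma (version 3.58.1, R 4.3.3) was run on log2(TPM + 1), with a variance trend, Benjamini-Hochberg adjustment and a threshold of 0.05. Genes under a mean of 1 TPM were left out, and fold changes on this scale understate changes of low genes. Fits were tested on simulated data.

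A run was at least 3 silent members next to each other among the kept members. IDs were paired with *A. thaliana* genes where the DH12075 TPM of at most 4 copies, each times a constant, summed exactly to that gene's values in the study's table by *A. thaliana* ortholog, from which no value is printed. For C05, sets of 4 copies were searched only with an A09 ID near the place predicted from genes already paired. For C06, sets of at most 2 copies were searched. Named are silent members, their neighbours, at most 3 members each way with the largest change in each tissue contrast, and copies of silent genes, and further genes were chosen after their values were seen. The members, lists and tests were chosen with earlier results of these data known. Alternatives were other limits for silence, filters, pseudocount, scaling, a replicate block and each library left out. Python 3.11.15, numpy 2.4.6, pandas 2.3.3, scipy 1.17.1 and matplotlib 3.10.9 were used.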

Additional observations from a re-analysis of the deposited data

Results flagged for a closer look

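The following 5 members, transcribed in both lines, had a leaf against cotyledon effect that differed between N99 and DH12075 by the interaction test of limma, and are given with the N99 minus DH12075 difference of the log2 effect. BnaC06g056210 had 4.30 ± 0.784 TPM in cotyledons and 4.37 ± 1.47 TPM in leaves of DH12075, against 1.75 ± 1.03 and 7.53 ± 0.980 TPM in N99 (SD, n = 3 each, difference 1.70, limma adjusted p = 0.0122). BnaC05g027090, which pairs with AT1G25460, had 8.48 ± 1.16 and 2.03 ± 0.530 TPM in DH12075 and 7.28 ± 1.22 and 6.28 ± 0.447 TPM in N99 (difference 1.48, limma adjusted p = 0.00247). BnaC06g056340 had 3.25 ± 0.517 and 1.70 ± 0.198 TPM in DH12075 and 8.86 ± 0.594 and 14.4 ± 1.63 TPM in N99 (difference 1.29, limma adjusted p = 0.00209). BnaC06g056300 had a difference of −2.45 (limma adjusted p = 0.0052). BnaC05g026740, which pairs with AT1G26270 of the phosphatidylinositol 4-kinase family, had 5.51 ± 0.763 and 9.90 ± 1.05 TPM in DH12075 and 11.4 ± 5.97 and 5.53 ± 1.41 TPM in N99 (difference −1.60, limma adjusted p = 0.0182). The part that the N99 cotyledon library with 37.1% of its TPM in 10 genes plays in these differences was measured by leaving it out, and all 5 kept their direction and call.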

How the results depend on the processing

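Leaving out any single library changed neither the 7 and 23 silent members nor the 4 runs. Requiring every N99 library under 0.1 TPM left 15 silent members on C06 and 19 in runs. With members of at least 5 TPM, 2 on C05 and 11 on C06 were silent, 9 of them in 2 runs, as fewer genes were kept. In the tissue fits, quantile normalization gave 17 members higher in DH12075 leaves and 4 with a lower leaf effect in N99. Without a filter, 3 members were lower in N99 leaves and 7 copies higher in N99, and rescaling without the 10 most abundant genes, added after seeing the data, gave 10 members lower in N99 leaves. Why these counts moved was not tested. Leaving out single libraries gave 7 to 16 members higher in DH12075 leaves, 2 to 6 higher and 2 to 5 lower in N99 leaves, and −0.072 to 0.13 for the line difference of BnaA09g038610. Replicate numbers did not pair the samples (correlations of deviations −0.08, 0.20 and 0.03 in DH12075 and −0.26, −0.12 and −0.33 in N99). With the replicate block, 8 members were higher and 19 lower in DH12075 leaves. Of 250 combinations of a named gene and an alternative, 243 kept direction and call, 3 lost the call (BnaC05g026710 in N99) and 4 changed sign without a call. Depth is unknown, so residual N99 values near 0 have no counting error.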
